A study of Mus musculus with 16 samples.

Results

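In J1 mouse embryonic stem (ES) cells, induction of a transcriptional activator aimed at RLTR10B2 and expression of A-MYB were applied separately and together. The measure described here is the departure from additivity, the effect of both together minus the sum of the effects of each alone, for every gene. It was computed from all 8 ES cell RNA-seq libraries among the 16 samples of the study. Of 23420 genes in the count tables, 14664 had enough counts to be tested. On the log2 scale, additive effects are fold changes that multiply: a gene that rises 2-fold with either treatment alone is expected at 4-fold with both. A positive departure means that the level with both treatments was above this sum, and a negative one that it was below. A gene that falls with either treatment and lies below the sum fell further than both single falls together.

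A-MYB, encoded by Mybl1, is a transcription factor of the MYB family that switches on a large programme of genes when male germ cells enter the pachytene stage of meiosis. RLTR10B2 is a family of long terminal repeats left by endogenous retroviruses, and such repeats can act as enhancers. dCas9-VPR is a Cas9 without cutting activity that is fused to a strong activation domain and carried to its targets by a guide RNA (gRNA), and doxycycline (Dox) is the drug used to switch its expression on. ES cells normally keep most germline genes and retroviral repeats silent.

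All 8 libraries came from J1 cells of strain 129S4/SvJae at passage 36 with the genotype Tn(dCas9-VPR/RLTR10B2-gRNA-DsRed), so the control cells carried the transgene too. The 4 groups of 2 libraries were Dox- (called control), Dox+ (Dox), Dox- with A-MYB (A-MYB) and Dox+ with A-MYB (both). Dox was given at 1 µg/ml, and it and A-MYB expression were induced at days 1 and 2 in medium with 2i and LIF, without feeder cells, and the sample names give day 3. How A-MYB was expressed and whether the line is 1 clone are not given in these sources. No group used here received Dox without the activator or with another guide, so effects of the drug, of the activator and of its targeted repeats cannot be told apart. RNA came from single wells of a 24-well plate. The labels do not say that these were separate cultures, so p-values measure the spread between these libraries, which may be technical.

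The libraries held 26995317 to 33771487 counts in genes. The libraries with both treatments stood apart from the other 6 on the first principal component, which held 64.1% of the variance: they lay at 80.7 and 80.9, and the others between -48.4 and -9.73. More genes had a count with both treatments (17578 ± 33.9, SD, n = 2) than in control cells (16079.5 ± 74.2, SD, n = 2), and a larger share of reads fell in no gene (9.11 ± 0.452% against 7.31 ± 0.0428%, SD, n = 2). The departure of every gene rests on these libraries, and the part of RNA quality or library composition in it was not tested.

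The combination of Dox and A-MYB did not act as the sum of its parts on a large share of genes. Of the 14664 genes tested, 5996 (40.9%) departed from additivity at an adjusted p under 0.05 in edgeR's quasi-likelihood test. The level with both treatments was above the sum for 2410 genes (16.4%) and below it for 3586 (24.5%). Departures above the sum were fewer but larger, with a median of 0.75 on the log2 scale against -0.56 for those below. A departure of at least 2-fold was reached by 894 genes above the sum (6.10%) and by 406 below it (2.77%). Of the 894, 102 passed the filter on low counts only through the libraries with both treatments, so they had to be high there, against 0 of the 406. Without such genes 792 remain, and the median above the sum is 0.71. A departure of at least 4-fold was reached by 347 and 36 genes. In all 16 ways of taking 1 library from each group, the sign was kept for 2397 of the 2410 genes above and for 3577 of the 3586 below. Over all tested genes the median departure was -0.0025, with the 10th and 90th percentiles at -0.72 and 1.19.

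**Figure D1:**
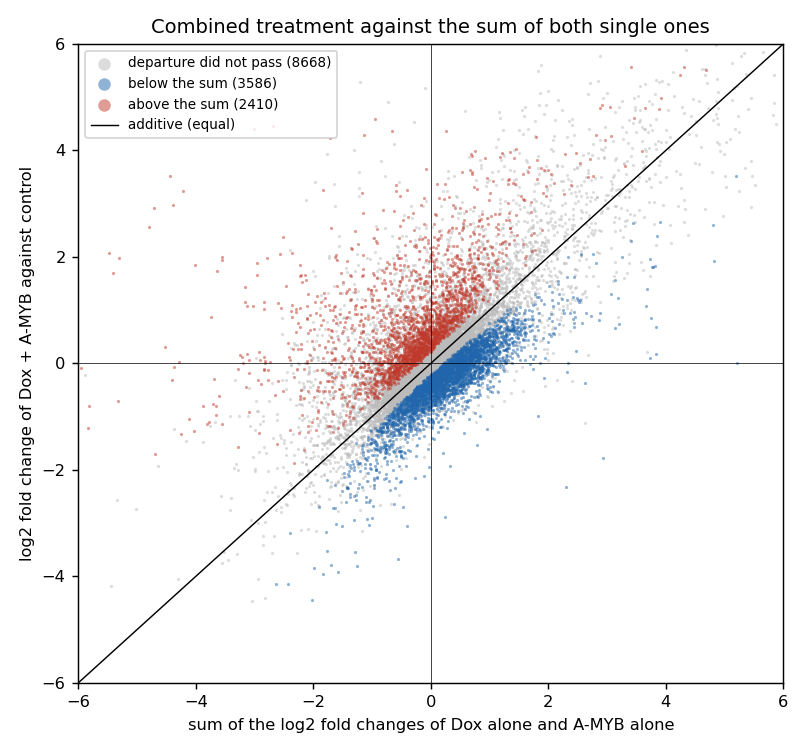
Each point is 1 of the 14664 tested genes, with the sum of the log2 fold changes of Dox alone and A-MYB alone on the x axis and the log2 fold change of both treatments against control on the y axis, and 113 genes fall outside the axes. Red points (2410) lie above the diagonal of additivity and blue points (3586) below it, with most blue points to the right of 0 on the x axis or near it.

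This balance depends on the scaling. With the total count of each library in place of edgeR's TMM factors (trimmed mean of M values), the median departure shifted up by 0.17, 3746 genes lay above the sum and 2291 below, and the share above among the genes called was 62.1% in place of 40.2%. The TMM factors averaged 1.12 with both treatments and 0.949 in control cells.

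Among genes with high levels in control cells more lay below the sum than above it, and among those with low levels more lay above. The 2410 genes above the sum had a median control level of 14.8 CPM (counts scaled to a common library size), and the 894 with a 2-fold departure 1.69 CPM. The 3586 genes below it had a median of 65.8 CPM, against 20.4 CPM for all genes tested. Genes with at least 10 counts in each control library were ordered by control level into 5 groups of equal size. The median departure was 0.50, 0.09, -0.04, -0.14 and -0.23 from the lowest to the highest group. The share above the sum was 20.2% in the lowest group and 7.53% in the highest, and the share below was 3.17% and 51.4%. The control libraries enter both the ordering and the departure, so this is a description. Low genes also need a larger departure to pass the test.

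**Figure D2:**
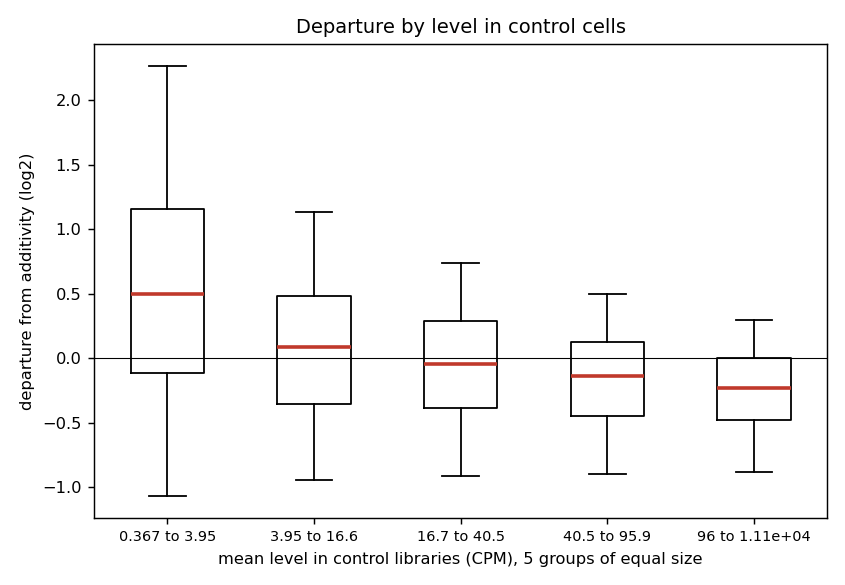
Departure from additivity (log2, y axis) of genes in 5 groups of equal size by mean control level (CPM, x axis). Boxes hold the middle 50% of genes with the median in red, and whiskers run from the 5th to the 95th percentile. The median falls from 0.50 in the lowest group to -0.23 in the highest.

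The direction of a departure says little without the single effects, so the genes were sorted by them. Against control, Dox alone raised 2626 genes (17.9%) and lowered 2091 (14.3%), A-MYB alone raised 2856 (19.5%) and lowered 2230 (15.2%), and both together raised 4906 (33.5%) and lowered 4462 (30.4%). Among genes above the sum, the most frequent pattern was a rise with both treatments where neither single effect passed the test, with 1062 genes, 456 of them with a departure of at least 2-fold. A rise with 1 or both single treatments that became larger than the sum was seen for 366 genes. For 376 genes a fall with a single treatment did not pass the test with both, and for 124 it turned into a rise. Among genes below the sum, 963 fell with both treatments where neither single effect passed, and 661 fell with a single treatment and further than the sum with both. For 631 genes that rose with a single treatment the rise with both was smaller than the sum, for 783 no change passed with both, and 383 fell with both. All 3 comparisons share the control libraries, and an effect that did not pass is not shown to be absent.

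**Figure D3:**
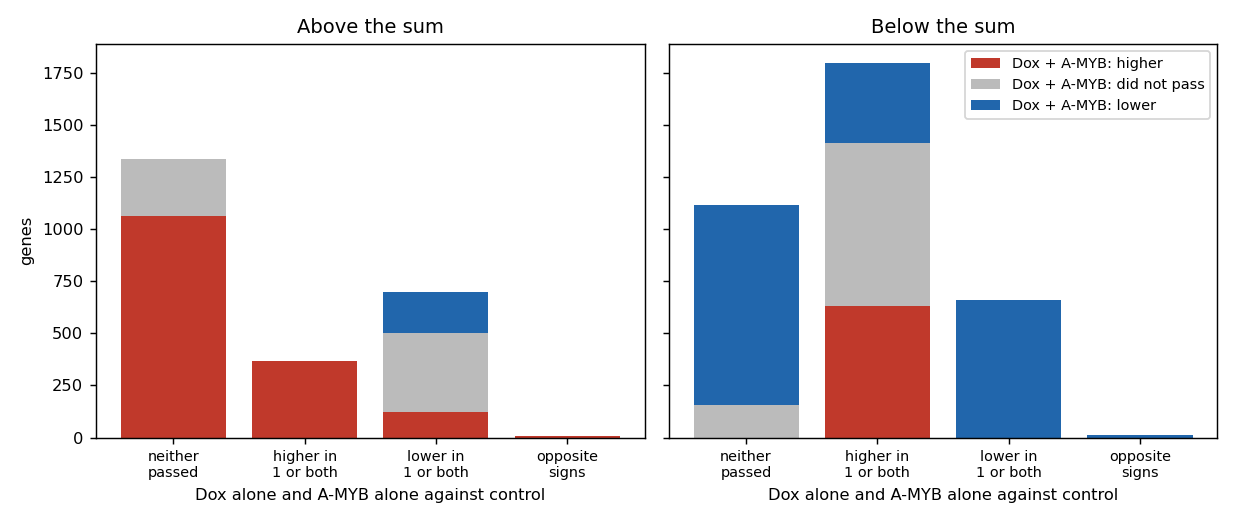
Number of genes (y axis) above the sum (left) and below it (right), by whether Dox alone or A-MYB alone raised or lowered them against control (x axis) and, in colour, by the change with both treatments. Rises with both where neither single effect passed (1062) lead on the left. On the right, single rises lead, and with both these stayed smaller than the sum (631), did not pass (783) or turned into falls (383).

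The largest positive departures belonged to genes that were weak in control cells. The 12 highest among genes with enough counts in every group were Car5a, Gm10532, Tnnt2, Ppp1r16b, Grin2c, Fgd2, Gm973, Madcam1, Lipg, Alox5, Helz2 and Mogat2, with departures from 2.97 to 3.33. Ppp1r16b, a regulatory subunit of protein phosphatase 1, was at 0.312 and 0.777 CPM in control cells, 0.515 and 0.344 with Dox, 0.621 and 0.601 with A-MYB and 3.77 and 5.49 with both. Both libraries with both treatments were above all 6 others, and the departure was 3.22 (SE 0.66, edgeR adjusted p = 3.44e-04). Grin2c, a subunit of the NMDA glutamate receptor, was at 0.9004 and 0.583 CPM in control cells, 0.969 and 1.03 with Dox, 0.475 and 0.334 with A-MYB and 4.67 and 5.07 with both. It had no overlap between the combination and the other groups, and its departure was 3.17 (SE 0.55, edgeR adjusted p = 6.03e-05). Madcam1, an adhesion molecule that guides lymphocytes to gut vessels, was at 1.94 and 2.64 CPM in control cells, 1.58 and 1.13 with Dox, 1.53 and 1.17 with A-MYB and 5.84 and 7.42 with both. The groups with a single treatment lay under the control and the combination above it, with a departure of 3.04 (SE 0.41, edgeR adjusted p = 2.30e-06).

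For some of these genes the departure came mostly from single falls that were missing with both treatments. Car5a, a mitochondrial carbonic anhydrase, was at 2.32 and 1.399 CPM in control cells, 0.485 and 0.309 with Dox, 0.913 and 0.935 with A-MYB and 1.61 and 2.43 with both. With both, its libraries overlapped those of control cells, while Dox alone lowered it (log2 fold change -2.21), and the departure was 3.33 (SE 0.62, edgeR adjusted p = 1.20e-04). Helz2, a helicase that acts as a nuclear receptor coactivator, was at 1.63 and 1.32 CPM in control cells, 0.424 and 0.344 with Dox, 0.621 and 0.868 with A-MYB and 1.37 and 1.72 with both, and its departure was 2.97 (SE 0.64, edgeR adjusted p = 6.42e-04). In both genes the combination came back to the control range. Lipg, the endothelial lipase, fell with either treatment alone and rose with both, from 2.49 and 2.797 CPM in control cells to 3.71 and 5.22 CPM, with 1.24 and 0.928 CPM for Dox and 1.28 and 1.37 CPM for A-MYB. Its departure was 3.02 (SE 0.43, edgeR adjusted p = 5.19e-06). Tnnt2, the cardiac troponin T, rose with Dox alone (log2 fold change 1.52), fell with A-MYB alone (-1.42) and rose with both (3.37). Its levels in CPM were 0.554 and 0.389 in control cells, 1.302 and 1.44 with Dox, 0.146 and 0.2004 with A-MYB and 4.97 and 4.95 with both.

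The promoter windows of the 3 highest genes that have an entry in RefSeq's table (build GRCm38.p6, 250 bases before to 50 after the start, 5′ to 3′ on the gene's strand) are shown because a MYB factor was added to these cells. Capitals mark each match to AACNG or its reverse complement CNGTT, the core letters that MYB factors bind; Car5a lies at chr8:121944863-121945162 on the minus strand, Tnnt2 at chr1:135836084-135836383 and Ppp1r16b at chr2:158666483-158666782 on the plus strand.
Car5a: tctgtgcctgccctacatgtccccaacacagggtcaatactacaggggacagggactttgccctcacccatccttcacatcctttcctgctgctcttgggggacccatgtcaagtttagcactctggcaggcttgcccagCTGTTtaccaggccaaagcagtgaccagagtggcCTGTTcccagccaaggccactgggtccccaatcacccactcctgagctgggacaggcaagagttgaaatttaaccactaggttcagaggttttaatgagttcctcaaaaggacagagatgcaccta
Tnnt2: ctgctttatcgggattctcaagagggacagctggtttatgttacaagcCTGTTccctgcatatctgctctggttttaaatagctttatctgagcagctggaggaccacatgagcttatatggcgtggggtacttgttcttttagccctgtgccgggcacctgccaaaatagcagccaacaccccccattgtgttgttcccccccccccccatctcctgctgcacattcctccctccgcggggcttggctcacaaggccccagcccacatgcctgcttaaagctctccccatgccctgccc
Ppp1r16b: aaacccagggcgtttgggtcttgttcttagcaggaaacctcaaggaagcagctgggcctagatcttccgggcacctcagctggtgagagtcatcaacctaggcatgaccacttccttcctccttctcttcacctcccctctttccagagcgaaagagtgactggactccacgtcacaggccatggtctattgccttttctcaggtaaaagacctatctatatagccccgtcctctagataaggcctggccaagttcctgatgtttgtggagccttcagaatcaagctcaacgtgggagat
Car5a has 2 matches, Tnnt2 has 1 and Ppp1r16b has 0 in the window shown; for Tnnt2 and Ppp1r16b the table holds another window, not shown here. These letters are too common to single out a gene: 80.3% of all 32851 promoter windows in the table hold at least 1 match. The share was 77.5% among tested genes with an entry, 78.6% for those above the sum and 76.1% for those below. The longer form CAGTTG or CAACTG was in 13.7% of all windows, 10.3% of those of tested genes, 11.3% above the sum and 8.75% below. These matches are a description of the letters and not of binding.

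Where single rises were amplified, the levels with both treatments passed the product of both folds by far. Trim17, an E3 ubiquitin ligase, was at 0.866 and 0.894 CPM in control cells, 2.88 and 2.03 with Dox, 2.34 and 4.31 with A-MYB and 39.02 and 45.002 with both. The level expected from both single folds is 9.26 CPM, and the departure was 2.16 (SE 0.41, edgeR adjusted p = 3.35e-04). Cnbd2, which codes for a protein with a cyclic nucleotide binding domain, was at 1.25 and 0.932 CPM in control cells, 2.302 and 1.72 with Dox, 1.46 and 1.302 with A-MYB and 15.01 and 19.16 with both, with a departure of 2.75 (SE 0.37, edgeR adjusted p = 2.29e-06). Dnahc17, a heavy chain of the axonemal dynein that moves cilia and flagella, rose with A-MYB alone and was at 2.77 and 3.15 CPM in control cells, 2.82 and 2.51 with Dox, 4.75 and 5.11 with A-MYB and 23.3 and 19.96 with both. Its departure was 2.28 (SE 0.25, edgeR adjusted p = 1.47e-07). In all 3 genes both libraries of the combination were above every other library.

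Genes with almost no counts in a group cannot be given a fold. Among these, Itga11, an integrin of collagen-binding cells, was at 0 and 0.155 CPM in control cells, 0.151 and 0.344 with Dox, 0.183 and 0 with A-MYB and 5.199 and 6.65 with both. Cdhr2, a protocadherin of the intestinal brush border, was at 0.0693 and 0.0777 CPM in control cells, 0.333 and 0.481 with Dox, 0.146 and 0.0668 with A-MYB and 5.02 and 5.16 with both. Kcnt1, a potassium channel gated by sodium, was at 0.173 and 0.272 CPM in control cells, 0.878 and 1.03 with Dox, 0 and 0 with A-MYB and 5.43 and 4.75 with both. All 3 were highest with both treatments. Rdh5, Hhipl2 and Papln were highest there too, with 3.096 and 3.32, 2.48 and 3.47 and 2.22 and 3.53 CPM with both treatments. Of the 2410 genes above the sum, 115 had under 10 counts in at least 1 group.

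The largest negative departures included falls beyond the sum and single rises that were smaller or did not pass with both. The 12 lowest genes were Mir703, Apoo, Zfp758, Aoc3, Snord12, Xlr, Kitl, Loxl2, Ndrg1, 2610305D13Rik, Nfe2l3 and Ier3, with departures from -3.00 to -2.26. Aoc3, a copper amine oxidase of vessels and fat, was at 12.5 and 12.3 CPM in control cells, 8.33 and 8.04 with Dox, 7.96 and 7.65 with A-MYB and 0.613 and 1.16 with both. The combination lay far under both single treatments, with a departure of -2.54 (SE 0.28, edgeR adjusted p = 1.87e-07). Ndrg1, a gene that hypoxia and differentiation induce, was at 130.1 and 142 CPM in control cells, 70.03 and 77.1 with Dox, 84.4 and 84.5 with A-MYB and 7.89 and 10.1 with both, where the sum predicts 45.7 CPM. Its departure was -2.34 (SE 0.13, edgeR adjusted p = 2.88e-12). Ier3, an early response gene, was at 16.3 and 17.4 CPM in control cells, 10.7 and 10.001 with Dox, 11.4 and 11.2 with A-MYB and 1.37 and 1.51 with both, and its departure was -2.26 (SE 0.22, edgeR adjusted p = 2.53e-08). Loxl2, a lysyl oxidase that acts on matrix proteins, fell from 25.4 and 25.4 CPM in control cells to 1.46 and 0.8603 CPM with both, below 9.45 and 9.42 CPM for Dox and 20.3 and 13.3 CPM for A-MYB. Its departure was -2.42 (SE 0.29, edgeR adjusted p = 2.87e-06), and on the linear CPM scale, where effects add without multiplying, it was 0.325 CPM, of the other sign.

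Nfe2l3, a transcription factor of the NRF family, passed with neither treatment alone and fell with both, with a departure of -2.26 (SE 0.48, edgeR adjusted p = 5.20e-04). Zfp758, a zinc finger gene, and 2610305D13Rik rose with A-MYB alone and by less with both. Zfp758 was at 1.59 and 2.37 CPM in control cells, 6.66 and 3.95 with Dox, 11.4 and 7.15 with A-MYB and 4.38 and 3.89 with both, and its departure was -2.59 (SE 0.39, edgeR adjusted p = 2.89e-05). Kitl, the ligand of the receptor Kit, was at 0.589 and 0.466 CPM in control cells, 1.45 and 1.0998 with Dox, 1.83 and 2.24 with A-MYB and 0.613 and 1.16 with both, so that the combination overlapped Dox alone. Mir703 and Snord12 name small RNAs whose mature forms this poly(A) library does not capture, so their counts may belong to longer transcripts that span them. The call of Apoo was lost without control replicate 1 (edgeR adjusted p = 0.072), and that of 2610305D13Rik without either control or either A-MYB library (edgeR adjusted p up to 0.069).

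**Figure D4:**
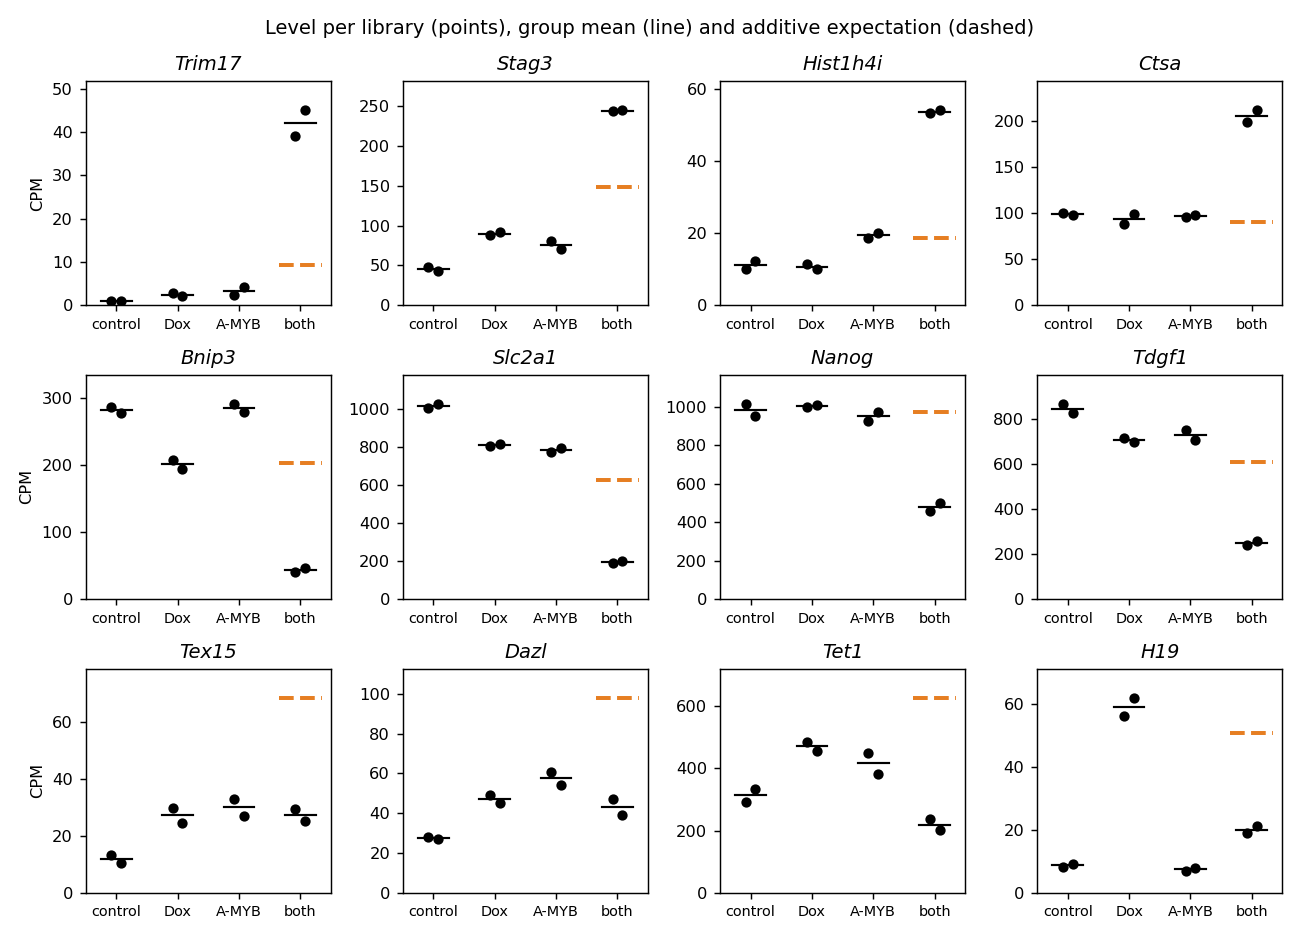
CPM (y axis) of 12 genes in the 4 groups (x axis), with a point per library, the group mean as a line and, for both treatments, the level expected from multiplying both single folds as a dashed orange line. The top row lies above that line with both treatments, the middle row shows genes that end below it after small single falls or none, and the bottom row genes that rose with Dox or A-MYB and end below it.

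Germline genes departed in both directions. Which of them are targets of A-MYB was not tested. In a list of meiotic recombination genes, 6 of 22 tested lay above the sum and 2 below (median departure 0.08), and in synaptonemal complex and meiotic cohesin genes 3 and 4 of 14 (0.15). The piRNA pathway, which silences transposons in germ cells, had 3 above and 2 below of 21 (-0.08), and spermatogonia and meiotic entry genes 4 and 4 of 20 (0.06). A list of germline genes named for promoters methylated in ES cells had 5 above and 7 below of 34 (-0.05). Methylation was not measured here, and the list includes Zfp42, a naive marker at 1104 CPM in control cells. Over these lists the share above ran from 14.3% to 27.3% and the share below from 9.09% to 28.6%, around the 16.4% and 24.5% of all genes. With total counts the methylated-promoter list had 8 above and 5 below (median 0.11), the cohesin list 5 and 4 (0.32), and the piRNA list 5 and 2 (0.08).

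Stag3, the cohesin subunit of meiotic chromosome axes, rose with each treatment and by more than the sum with both. It was at 48.1 and 43.4 CPM in control cells, 87.7 and 91.8 with Dox, 80.9 and 71.03 with A-MYB and 244 and 245 with both, where 149 CPM is expected. The 4 groups do not overlap, and the departure was 0.72 (SE 0.10, edgeR adjusted p = 4.58e-06). Msh4, a factor that stabilizes crossover intermediates, was at 0.796 and 0.544 CPM in control cells, 1.09 and 1.58 with Dox, 1.35 and 0.868 with A-MYB and 9.32 and 8.16 with both, with a departure of 2.01 (SE 0.47, edgeR adjusted p = 0.0013). Mov10l1, the RNA helicase that starts piRNA processing, rose from 9.904 and 9.21 CPM in control cells to 16.1 and 20.6 with Dox and 32.5 and 31.98 with both, and was at 9.64 and 11.1 with A-MYB. Its departure was 0.70 (SE 0.18, edgeR adjusted p = 0.0027). 4930432K21Rik, known as Brme1, a partner of the meiotic BRCA2 machinery, was at 20.4 and 20.3 CPM in control cells, 20.2 and 19.5 with Dox, 15.5 and 17.4 with A-MYB and 30.8 and 35.4 with both, with a departure of 1.04 (SE 0.15, edgeR adjusted p = 4.46e-06).

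The promoter window of Stag3 (chr5:138280259-138280558, plus strand, RefSeq GRCm38.p6), chosen after its values were seen, holds 2 AACNG or CNGTT matches, in capitals.
Stag3: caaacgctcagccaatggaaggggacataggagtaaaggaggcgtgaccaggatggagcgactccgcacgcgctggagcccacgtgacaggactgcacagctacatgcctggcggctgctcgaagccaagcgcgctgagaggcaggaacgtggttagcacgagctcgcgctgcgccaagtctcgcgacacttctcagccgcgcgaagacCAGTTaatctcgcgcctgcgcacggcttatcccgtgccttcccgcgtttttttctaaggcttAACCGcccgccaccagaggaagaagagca

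Other germline genes rose with either treatment alone and stayed below the sum with both. Tex15, which meiotic recombination and the silencing of transposons require, was at 13.3 and 10.6 CPM in control cells, 29.8 and 24.7 with Dox, 33.2 and 27.1 with A-MYB and 29.6 and 25.1 with both. The 3 treated groups overlap and all lie above the control, and the departure was -1.32 (SE 0.18, edgeR adjusted p = 8.30e-06). Dazl, an RNA-binding protein that licenses germ cells for meiosis, was at 28.1 and 27.3 CPM in control cells, 49.2 and 44.9 with Dox, 60.9 and 54.3 with A-MYB and 47.03 and 39.1 with both. Both libraries with both treatments lay within or under the range of the single ones, where 97.9 CPM is expected, and the departure was -1.18 (SE 0.13, edgeR adjusted p = 1.83e-07). Stk31, a germ cell kinase, was at 28.3 and 25.5 CPM in control cells, 57.2 and 51.9 with Dox, 56.1 and 55.2 with A-MYB and 69.9 and 53.8 with both, so that 1 library of the combination lay above all single ones, and its departure was -0.87 (SE 0.14, edgeR adjusted p = 5.76e-05). Hormad1, a protein of unsynapsed meiotic axes, had a departure of -0.88 (SE 0.20, edgeR adjusted p = 0.0019). Rnf17, a tudor protein of germ cell granules, had one of -0.71 (SE 0.12, edgeR adjusted p = 9.32e-05). 4930447C04Rik, known as Six6os1, a part of the synaptonemal complex, rose from 1.25 and 0.699 CPM to 6.57 and 5.84 CPM with both, short of the 15.03 CPM expected. Its call was lost without control replicate 2 (edgeR adjusted p = 0.077).

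Mybl1 itself was at 8.38 and 6.92 CPM in control cells, 10.99 and 10.2 with Dox, 22.03 and 17.8 with A-MYB and 19.9 and 16.6 with both. A-MYB cells lay above control and Dox cells, and those with both overlapped those with A-MYB alone. The rise was 0.47 with Dox, 1.38 with A-MYB and 1.25 with both on the log2 scale. The departure was -0.59 (SE 0.20, edgeR adjusted p = 0.018); it did not pass with total counts, or without control replicate 2, Dox replicate 1, A-MYB replicate 1 or replicate 2 of the combination, where its edgeR adjusted p reached 0.14. Counts over the gene do not separate the added A-MYB from the cells' own, and whether its transgene carries the counted sequence is not known here.

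Partners of MYB factors and the cell division genes they serve lay below the sum in part. In the list of the MYB family and the MuvB complex, which binds the promoters of mitotic genes, 8 of 13 were below (61.5%, against 24.5% of all genes) and 0 above (against 16.4%), with a median departure of -0.29. Lin54, the DNA-binding subunit of MuvB, rose with each treatment, and with both its change did not pass; it was at 31.3 and 32.2 CPM in control cells, 43.8 and 37.4 with Dox, 44.5 and 43.01 with A-MYB and 37.97 and 33.7 with both, with a departure of -0.64 (SE 0.13, edgeR adjusted p = 2.91e-04). Of 26 genes for G2/M and mitosis, 20 were below (76.9%) and 0 above (-0.35). Their median control level was 221 CPM, in the range of the highest of the 5 groups by control level. In that group 51.4% of genes were below. Kif23, a kinesin of the central spindle, was at 257 and 259 CPM in control cells, 220.2 and 222 with Dox, 239 and 223 with A-MYB and 101 and 97.5 with both. The combination lies under all other libraries, with a departure of -0.998 (SE 0.08, edgeR adjusted p = 1.99e-09). Ccnb1, the mitotic cyclin, had a departure of -0.53 (SE 0.08, edgeR adjusted p = 6.35e-06). With total counts, 3 MYB and MuvB genes and 11 mitotic genes were below and 1 of each above.

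Glycolysis and the hypoxia response made up the list with the lowest median departure of the 42 (-1.10, against -0.0025 over all genes). All 32 members were tested, 29 were below the sum (90.6%, against 24.5% of all genes) and 0 above (against 16.4%). By at least 2-fold, 20 of the 32 lay below, against 2.77% of all genes. The median control level of this list was 259 CPM, that of sterol synthesis 126 CPM, of endoplasmic reticulum chaperones 106 CPM, of heat shock genes 788 CPM and of naive pluripotency genes 271 CPM. All 5 fall in the range of the highest of the 5 groups by control level, where 51.4% of genes were below the sum. For 25 of the 29, a fall with a single treatment became larger than the sum with both, against 18.4% of all 3586 genes below the sum. The summed level of the list was 10026 to 10571 CPM with both treatments, against 26294 to 26744 in control cells and 21338 to 22288 with a single treatment, by total counts. Bnip3, a mitophagy receptor that the hypoxia factor HIF-1 induces, was at 286 and 278 CPM in control cells, 208 and 194 with Dox, 291 and 279 with A-MYB and 40.7 and 45.7 with both. The sum predicts 203 CPM, and the departure was -2.23 (SE 0.09, edgeR adjusted p = 5.88e-15). Slc2a1, the glucose transporter GLUT1, was at 1009.9 and 1028 CPM in control cells, 807 and 818 with Dox, 774 and 798 with A-MYB and 190.1 and 202 with both, and its departure was -1.67 (SE 0.08, edgeR adjusted p = 7.52e-14). Egln1, the oxygen sensor that marks HIF for destruction, was at 180.0 and 187 CPM in control cells, 127 and 127 with Dox, 128 and 122 with A-MYB and 23.1 and 25.2 with both, with a departure of -1.84 (SE 0.09, edgeR adjusted p = 3.90e-13). In these 3 genes both libraries of the combination lay under every other library.

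Bnip3 is shown as the gene of that list with the smallest p, with its promoter window (chr7:138909457-138909756, minus strand, RefSeq GRCm38.p6) chosen after its values were seen. The capitals mark a stretch that holds ACGTG, the core that HIF binds, and its reverse complement CACGT, which overlap there.
Bnip3: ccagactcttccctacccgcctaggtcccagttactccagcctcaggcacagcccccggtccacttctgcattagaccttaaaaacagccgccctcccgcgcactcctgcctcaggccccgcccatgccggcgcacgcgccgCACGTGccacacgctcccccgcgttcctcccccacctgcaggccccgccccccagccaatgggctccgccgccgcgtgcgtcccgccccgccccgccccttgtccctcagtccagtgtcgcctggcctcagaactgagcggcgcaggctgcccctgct
ACGTG or CACGT was in 16 of the 28 windows of glycolysis and hypoxia genes (57.1%), against 19.6% of all windows, 25.5% of those of tested genes and 28.8% of those below the sum. The motif was looked for after the values were seen, and many of these genes are known HIF targets.

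Sterol and lipid synthesis lay below the sum for 20 of 30 genes (66.7%, against 24.5% of all genes) and above for 2 (6.67%, against 16.4%), with a median of -0.45. Scd2, a fatty acid desaturase, was at 1298 and 1437 CPM in control cells, 891 and 884 with Dox, 1308 and 1257 with A-MYB and 317 and 272 with both, and its departure was -1.50 (SE 0.09, edgeR adjusted p = 3.38e-11). Hmgcs1, an early enzyme of the mevalonate pathway, was at 306 and 311 CPM in control cells, 201 and 199.9 with Dox, 269.9 and 245 with A-MYB and 76.7 and 72.6 with both, and its departure was -1.17 (SE 0.09, edgeR adjusted p = 2.62e-10). Both genes fell with Dox alone, and with both treatments they lay under every other library.

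Chaperone genes lay below the sum as well. Of 22 endoplasmic reticulum chaperone genes 17 were below (77.3%) and 1 above (median -0.45), and of 25 heat shock and chaperonin genes 18 were below (72.0%) and 0 above (-0.44), against 24.5% and 16.4% of all genes. Hsp90b1, the endoplasmic reticulum form of HSP90, was at 846 and 779 CPM in control cells, 475 and 461 with Dox, 613 and 571 with A-MYB and 232 and 226 with both, and its departure was -0.58 (SE 0.08, edgeR adjusted p = 4.83e-06). Hspd1, the mitochondrial chaperonin, was at 1048 and 949.6 CPM in control cells, 773 and 775 with Dox, 836 and 805 with A-MYB and 319.7 and 316 with both, and its departure was -1.0 (SE 0.08, edgeR adjusted p = 1.18e-09). Hspa8, the constant cytosolic HSP70, passed with neither treatment alone and fell with both (log2 fold change -1.03). Ero1l, an oxidase for disulfide bonds that is also on the glycolysis and hypoxia list, had a departure of -1.70 (SE 0.11, edgeR adjusted p = 1.05e-10).

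The naive pluripotency network, which keeps ES cells undifferentiated, lay below the sum. Of its 22 genes 16 were below (72.7%, against 24.5% of all genes) and 0 above (against 16.4%), with a median of -0.81; with total counts 15 were below and 3 above. Its summed level was 7562 to 7917 CPM with both treatments and 9334 to 10163 CPM in the other groups, by total counts. Nanog, a core pluripotency factor, was at 1014 and 951 CPM in control cells, 1001 and 1009 with Dox, 928 and 972 with A-MYB and 459 and 499 with both. Neither single effect passed, and with both treatments it lay under all other libraries; the departure was -1.02 (SE 0.08, edgeR adjusted p = 1.03e-09). Sox2, a partner of OCT4, rose with each treatment alone and fell with both, at 351 and 365 CPM in control cells, 419 and 391 with Dox, 427 and 410.4 with A-MYB and 232 and 224 with both, with a departure of -1.05 (SE 0.08, edgeR adjusted p = 4.52e-10). Tdgf1, the Nodal co-receptor Cripto, was at 866 and 826 CPM in control cells, 716 and 698 with Dox, 753 and 707 with A-MYB and 240.0 and 256 with both, and its departure was -1.30 (SE 0.08, edgeR adjusted p = 1.03e-11). Zfp42, a marker of naive cells, rose by 0.21 and 0.16 on the log2 scale with the single treatments and fell with both (log2 fold change -0.33).

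Among lists of signalling genes, those of LIF and STAT3 and of Nodal and Lefty lay mostly below the sum. They share genes below the sum with the naive pluripotency list: Klf4 and Tfcp2l1 for LIF and STAT3, and Tdgf1 for Nodal and Lefty. Of 15 LIF and STAT3 genes, 11 were below and 2 above (median -0.51), and of 15 Nodal and Lefty genes 11 and 1 (-0.65). Each list had 73.3% below, against 24.5% of all genes. Their median control levels were 92.6 and 71.8 CPM, in the range of the group next to the highest by control level. In that group 38.7% of genes were below. Socs3, the feedback inhibitor of STAT3, was at 161 and 163 CPM in control cells, 111 and 117 with Dox, 116 and 126 with A-MYB and 55.1 and 55.3 with both, with a departure of -0.63 (SE 0.09, edgeR adjusted p = 7.27e-06). Tfcp2l1, a naive factor downstream of STAT3, passed with neither treatment alone and had a departure of -0.98 (SE 0.09, edgeR adjusted p = 2.20e-08). Lefty2, a secreted Nodal antagonist that Nodal itself induces, was at 428 and 435 CPM in control cells, 195 and 197 with Dox, 334 and 335 with A-MYB and 52.3 and 51.2 with both. Dox alone lowered it most among the single treatments, the combination lay under all others, and the departure was -1.55 (SE 0.08, edgeR adjusted p = 3.90e-13). Wnt ligands, antagonists and targets had 8 below and 2 above of 21 (-0.13), and MAPK feedback and immediate early genes 8 and 4 of 22 (0.02). With total counts these became 6 and 2 (0.03) and 5 and 4 (0.19). The culture held 2i, which blocks MEK and GSK3 in every group. Of 14 formative and primed pluripotency genes 4 were below and 0 above (-0.07), and 3 and 3 with total counts (0.09).

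Many chromatin repressors of germline genes and retroviruses lay below the sum. Of 15 PRC1.6 genes 10 were below (66.7%) and 0 above (median -0.44). Of 30 genes that silence endogenous retroviruses 19 were below (63.3%) and 0 above (-0.41). Over all genes the shares were 24.5% and 16.4%. The median control levels of these lists were 159 and 137 CPM. Both fall in the range of the highest of the 5 groups by control level, where 51.4% of genes were below and 7.53% above. A rise with a single treatment was seen for 6 of the 10 and 14 of the 19, against 50.1% of all 3586 genes below the sum. Of the 19, 7 rose with a single treatment and with both, and 6 rose with a single treatment and did not pass with both. Mga, the DNA-binding scaffold of PRC1.6, was at 296 and 313 CPM in control cells, 526 and 509 with Dox, 537 and 466 with A-MYB and 582 and 503 with both. Its 3 treated groups overlap, all are above control, and the departure was -0.65 (SE 0.10, edgeR adjusted p = 2.42e-05). Rnf2, the ubiquitin ligase of PRC1, rose with A-MYB alone and fell with both, at 129 and 126 CPM in control cells, 146 and 133 with Dox, 186 and 164 with A-MYB and 99.3 and 98.4 with both, with a departure of -0.95 (SE 0.10, edgeR adjusted p = 4.03e-08). Setdb1, which methylates histone H3 at retroviral repeats, was at 275 and 265 CPM in control cells, 311 and 301 with Dox, 279.9 and 278 with A-MYB and 232 and 212 with both, with a departure of -0.51 (SE 0.08, edgeR adjusted p = 2.23e-05). Cbx5, the heterochromatin protein HP1 alpha, had a departure of -0.70 (SE 0.09, edgeR adjusted p = 1.92e-06). With total counts 8 PRC1.6 genes were below and 1 above, and 15 and 4 silencing genes.

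DNA methylation enzymes had 4 below (30.8%) and 1 above (7.69%) of 13 (median -0.06), against 24.5% and 16.4% of all genes. With total counts they had 4 and 2 (0.10). Their median control level was 135 CPM, in the range of the highest of the 5 groups by control level, where 51.4% were below. Tet1, which oxidizes methylated cytosine, rose with each treatment alone and fell with both. It was at 293 and 333 CPM in control cells, 486 and 455 with Dox, 450.0 and 383 with A-MYB and 236 and 202 with both, where 627 CPM is expected, and its departure was -1.52 (SE 0.13, edgeR adjusted p = 1.40e-06). Tet2, of the same family, had a departure of -0.98 (SE 0.10, edgeR adjusted p = 7.59e-08). Uhrf1, which brings DNMT1 to replicating DNA, fell from 1013 and 1019 CPM to 501 and 519 CPM with both, with a departure of -0.64 (SE 0.08, edgeR adjusted p = 3.55e-07).

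Histone genes went the other way. Of 22 core and linker histone genes 13 lay above the sum (59.1%, against 16.4% of all genes) and 0 below (against 24.5%), with a median of 1.00. By at least 2-fold, 9 of the 22 lay above, against 6.10% of all genes. A rise with a single treatment and with both was seen for 9 of the 13, against 15.2% of all 2410 genes above the sum. The median control level was 2.09 CPM, in the range of the lowest of the 5 groups by control level. In that group 20.2% of genes were above the sum, 487 of 2617 by at least 2-fold, and 3.17% below. Of the 22, 2 passed the filter on low counts only through the libraries with both treatments. Hist1h4i, an H4 gene, was at 10.04 and 12.2 CPM in control cells, 11.3 and 10.1 with Dox, 18.7 and 20.2 with A-MYB and 53.4 and 54.2 with both. A-MYB alone raised it, Dox alone overlapped control, and with both it lay above all other libraries, with a departure of 1.51 (SE 0.16, edgeR adjusted p = 5.26e-08). Hist1h2bc, an H2B gene, was at 17.7 and 19.08 CPM in control cells, 15.9 and 16.3 with Dox, 36.9 and 36.7 with A-MYB and 70.3 and 73.4 with both, with a departure of 1.16 (SE 0.12, edgeR adjusted p = 1.11e-07). Most replication-dependent histone mRNAs have no poly(A) tail, so a poly(A) library counts only the part of them that has one. Histone genes within a cluster are near copies of each other, and reads that fit several could be split or lost in the authors' counting.

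Lysosome and stress response genes also lay above the sum more often than the 16.4% of all genes. Of 25 lysosome and autophagy genes 13 were above and 3 below (median 0.30). Of 24 genes of the integrated stress response, which slows translation under stress, 10 were above and 3 below (0.22). Against control the stress list was lower with both treatments, by a median log2 fold change of -0.99. Its summed level was 3378 and 3397 CPM in control cells and 2397 and 2454 with both, on the TMM scale. Of the 10, Chac1, Phgdh and Psph fell with both, Atf5, Cth and Ppp1r15a did not pass, and the others rose. Ctsa, a lysosomal carboxypeptidase, was at 100.4 and 98.1 CPM in control cells, 87.9 and 98.9 with Dox, 95.4 and 97.5 with A-MYB and 199 and 212 with both. The first 3 groups lie close together, the combination lies above them, and the departure was 1.18 (SE 0.10, edgeR adjusted p = 1.18e-09). Hexa, a beta-hexosaminidase subunit, rose with each treatment and more with both, with a departure of 0.98 (SE 0.09, edgeR adjusted p = 1.87e-08). Ddit3, the stress factor CHOP, was at 10.3 and 12.8 CPM in control cells, 8.39 and 8.42 with Dox, 11.5 and 11.6 with A-MYB and 21.4 and 22.3 with both. Dox alone lowered it, both raised it, and the departure was 1.38 (SE 0.18, edgeR adjusted p = 1.81e-06). Atf4, which drives this response, had a departure of 0.70 (SE 0.08, edgeR adjusted p = 3.47e-07), while Shmt2, a mitochondrial serine enzyme on the same list, fell further than the sum, with -0.58 (SE 0.08, edgeR adjusted p = 3.36e-06).

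The p53 response had 6 above and 7 below of 21 (median 0.04), where 16.4% and 24.5% of all genes were above and below. It had 9 and 2 with total counts and 9 and 5 with DESeq2's size factors. DESeq2's Wald test gave 8 and 5, and the filter on control libraries 9 and 4 of 20. Trp53inp1, a cofactor of p53, was at 107 and 106 CPM in control cells, 177 and 161 with Dox, 299 and 266 with A-MYB and 243 and 208 with both; its rise with both lay between those with Dox and with A-MYB, and the departure was -0.995 (SE 0.10, edgeR adjusted p = 1.94e-07). Bbc3, the death factor PUMA, had a departure of 0.84 (SE 0.16, edgeR adjusted p = 2.29e-04), and Bax, another death factor, one of 0.52 (SE 0.10, edgeR adjusted p = 2.17e-04). Of 14 interferon response genes 4 were above and 1 below (0.23), with a departure of 0.72 (SE 0.12, edgeR adjusted p = 3.63e-05) for Stat2, a transducer of the interferon signal.

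For large housekeeping complexes the counts depend on the scaling, and can be read against 16.4% of all genes above the sum and 24.5% below. Every list in this paragraph had a median control level in the range of the highest of the 5 groups by control level. In that group 7.53% of genes were above and 51.4% below, more below than the share in any of these lists. Cytosolic ribosomal proteins had 3 above and 4 below of 40 (median 0.04) by TMM and 20 above and 1 below with total counts. Oxidative phosphorylation genes had 8 above and 3 below of 38 (0.09), and 20 and 1 with total counts. The proteasome had 2 above and 13 below (41.9%) of 31 (-0.15), and 6 and 5 with total counts. Genes of Myc and ribosome biogenesis had 1 above and 10 below (38.5%) of 26 (-0.15), and 7 and 6 with total counts, and DNA replication licensing genes 3 and 10 (41.7%) of 24 (-0.15), and 6 and 4. Npm1, the nucleolar chaperone nucleophosmin, was at 3551 and 3177 CPM in control cells, 3089 and 3011 with Dox, 3537 and 3479.6 with A-MYB and 2078 and 2036 with both, with a departure of -0.63 (SE 0.08, edgeR adjusted p = 1.53e-06). Aminoacyl-tRNA synthetases had 3 above and 6 below of 20 (0.00081), and 7 and 3 with total counts.

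**Figure D5:**
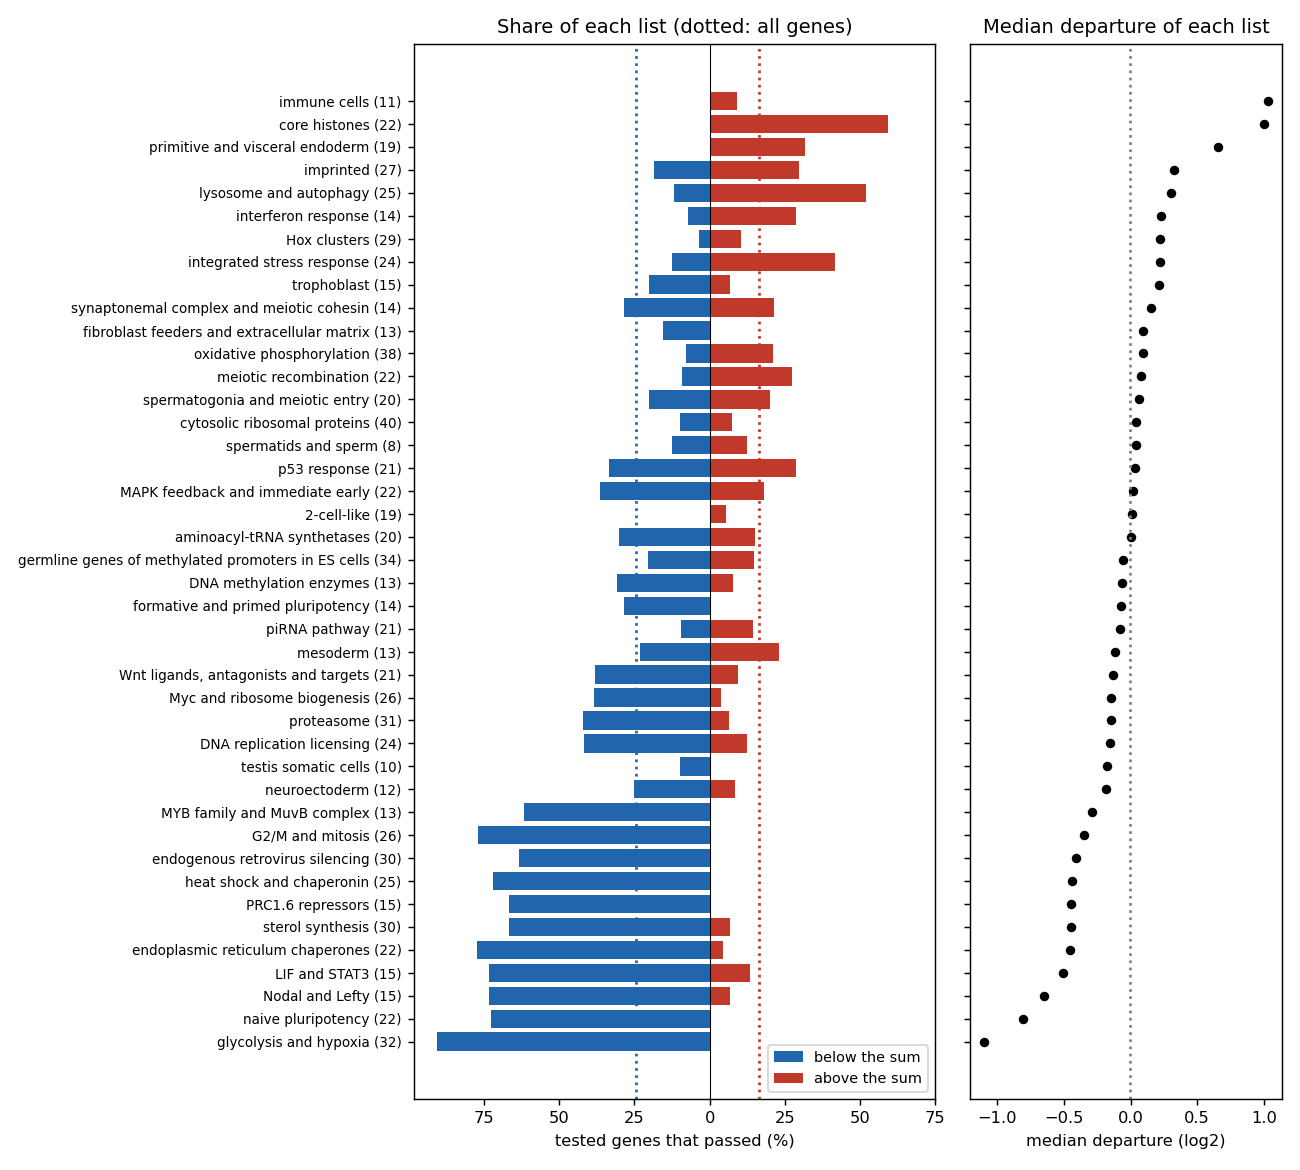
Share of the tested genes of each of the 42 lists that lay below the sum (blue, to the left) or above it (red, to the right), as percent, beside the median departure of the list (log2), with the number of tested genes in parentheses and dotted lines at the values of all genes. Glycolysis and hypoxia has the lowest median (-1.10), and core histones have the highest share above the sum (59.1%).

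Markers of other lineages gave no common direction. Their counts can be read against 16.4% of all genes above the sum and 24.5% below. Of the tested genes, 2 of endoderm, 3 of mesoderm, 1 of neuroectoderm and 1 of trophoblast passed the filter only through the libraries with both treatments. Primitive and visceral endoderm genes had 6 above and 0 below of 19 tested (median 0.65). Apoe, a lipid carrier among them, was at 222 and 206 CPM in control cells, 104 and 122 with Dox, 141 and 161 with A-MYB and 117 and 129 with both, lower in every treated group than in control cells, with a departure of 0.62 (SE 0.11, edgeR adjusted p = 1.34e-04). Hnf4a, an endoderm transcription factor, was at 5.44 and 8.24 CPM in control cells, 5.51 and 5.02 with Dox, 7.999 and 9.02 with A-MYB and 16.3 and 18.9 with both, with a departure of 1.41 (SE 0.24, edgeR adjusted p = 4.89e-05). Mesoderm had 3 above and 3 below of 13 (-0.11), neuroectoderm 1 and 3 of 12 (-0.19) and trophoblast 1 and 3 of 15 (0.21). With total counts, mesoderm had 3 and 1 (0.05) and trophoblast 3 and 2 (0.38). Tubb3, a neuronal tubulin, was at 256 and 251 CPM in control cells, 122 and 119 with Dox, 158 and 185 with A-MYB and 51.8 and 51.97 with both, with a departure of -0.66 (SE 0.10, edgeR adjusted p = 6.68e-06), which is 13.2 CPM and of the other sign on the linear scale. Genes of 2-cell-like cells had 1 above and 0 below of 19 (0.01), and Zscan4d, which marks that state, was at 7.96 and 7.69 CPM in control cells, 11.1 and 9.73 with Dox, 7.12 and 8.75 with A-MYB and 12.9 and 12.8 with both, with a departure of 0.28 (SE 0.21, edgeR adjusted p = 0.29).

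For cell types the culture could also hold, fibroblast and matrix genes had 0 above and 2 below of 13 tested (median 0.09). Testis somatic cells had 0 and 1 of 10, and immune cells 1 and 0 of 11. Over all genes 16.4% were above and 24.5% below. The summed level of the 19 immune genes was 54.8 to 56.0 CPM with both treatments and 18.97 to 26.5 CPM in the other groups, by total counts, with the defining markers Lyz2 and Tyrobp at 0 in all libraries. Of that sum, Klrb1a gave 8.4998 and 7.45 CPM and Ccl22 5.72 and 6.44 CPM with both treatments, on the TMM scale. Spermatid and sperm genes had 1 above and 1 below of 8 tested among 27, and Prm1, Prm2, Tnp1, Acrv1, Akap4 and Catsper1 were at 0 in all 8 libraries. Fgf5, a marker of primed cells, was at 0 too, while the naive markers above were high in control cells, as the ES cell label says.

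Imprinted genes, expressed from 1 parental copy, had 8 above (29.6%) and 5 below (18.5%) of 27 (median 0.32), against 16.4% and 24.5% of all genes. H19, a long noncoding RNA of the Igf2 locus, was at 8.35 and 9.09 CPM in control cells, 56.3 and 61.9 with Dox, 7.01 and 7.98 with A-MYB and 18.9 and 21.1 with both. Dox alone raised it more than the combination did, the level with A-MYB alone did not pass against control, and the departure was -1.35 (SE 0.16, edgeR adjusted p = 4.31e-07). Plagl1, a zinc finger factor of the imprinted network, rose with A-MYB alone and fell with both, with a departure of -1.35 (SE 0.10, edgeR adjusted p = 4.94e-10). Grb10, an inhibitor of growth factor receptors, fell with Dox alone and rose with both, at 30.6 and 32.1 CPM in control cells, 20.3 and 20.96 with Dox, 27.98 and 27.6 with A-MYB and 41.3 and 42.01 with both, with a departure of 1.19 (SE 0.13, edgeR adjusted p = 7.80e-08). Of 29 tested Hox genes 3 were above (10.3%) and 1 below (3.45%), with a median of 0.22. Among the 29, 3 passed the filter on low counts only through the libraries with both treatments.

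The effect of Dox itself changed sign with A-MYB for a subset. In A-MYB cells Dox raised 4174 genes (28.5%) and lowered 4463 (30.4%) at an edgeR adjusted p under 0.05. Counting genes that passed in both settings and whose departure passed too, Dox lowered 160 without A-MYB and raised them with it, and raised 665 without and lowered them with it. Tet1 and Sox2 above belong to the kind that rose with Dox alone and was lower with both than with A-MYB alone. 

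Peak lists for H3K27ac, an acetyl mark of active promoters and enhancers, in pachytene spermatocytes were set beside these genes. Of the 11535 tested genes with a start site in the promoter table, 11285 (97.8%) had no listed peak within 1 kb of it in any of the 4 libraries. A peak in both wild-type libraries and in no mutant one was listed for 2 of 1901 genes above the sum, 7 of 2867 below and 22 of all 11535. With so few start sites covered no comparison was drawn from them, and the sources do not say which library was the control of which peak call.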

How the data were processed

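RNA-seq of 8 ES cell libraries was used. The deposited files hold raw counts of reads per gene symbol, which the authors did not normalize. Per the submitters' processing notes, the tools were bcl2fastq 2.20.0, HISAT2 2.1.0, Bowtie2 2.3.3.1, MACS 1.4.2 and HTSeq, and the build mm10; their roles and the strand setting are not given in the sources used here, so overlapping and antisense genes are uncertain. In the deposited peak lists only the positions were used. The 5 special rows for reads in no gene were left out.

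Genes were filtered with filterByExpr, scaled by TMM and fitted with edgeR 4.0.16 (R 4.3.3; glmQLFit, robust, 1 coefficient per group, 4 residual degrees of freedom). The departure, (both minus A-MYB) minus (Dox minus control), was tested two-sided with glmQLFTest, Benjamini-Hochberg adjusted over all 14664 genes, and passed at an adjusted p under 0.05. The SE is the absolute log2 value over the square root of F. Levels are TMM-scaled CPM, and the expected level is the Dox mean times the A-MYB mean over the control mean. In groups of 2 libraries, an SD rests on 2 values. A p rests on 1 fit to all 8 libraries, with information on the spread shared between genes. The libraries held 26995317 to 33771487 counts, and the biological coefficient of variation was 0.0631. Counts of the same group differed by more than sampling noise (chi-square per degree of freedom 4.79 to 11.8). Same-numbered libraries did not deviate together (correlations -0.0269 to 0.0843), so the numbers were not taken as pairs. On simulated data the test recovered 31 of 67 departures of 0.5, 47 of 67 of 1 and 55 of 66 of 2 on the log2 scale, and called 24 of 13489 additive genes. Those data held few departures, while 5996 genes were called in the measured libraries. The effect of the scaling on the calls when many genes depart was not tested.

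The members, the 42 lists and the choice of genes to name were made with earlier results of these data known. Named were genes that passed, with a log2 CPM averaging 0 or more, at least 10 counts over both libraries of every group and 1 sign in all 16 choices of libraries: the 12 highest and 12 lowest departures. It added Mybl1, up to 4 genes per list by p, up to 4 per pattern of single and combined effects by size, and 6 genes with low counts, for which levels are given. Alternatives were DESeq2's size factors (DESeq2 1.42.0), total counts, no filter, a filter on control libraries, a replicate block, DESeq2's Wald test, the linear CPM scale and leaving out each library. RefSeq names matched 14607 genes. The 8 spermatocyte samples entered no test.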

Additional observations from a re-analysis of the deposited data

Results flagged for a closer look

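The effect of Dox differed with and without A-MYB, by the test of the difference itself, for the counts and genes given here. It did so for 2410 genes above the sum and 3586 below. Among the genes chosen by size, the departures above the sum were 3.33 for Car5a, 3.32 for Gm10532, 3.28 for Tnnt2, 3.22 for Ppp1r16b, 3.17 for Grin2c, 3.12 for Fgd2, 3.04 for Gm973, 3.04 for Madcam1, 3.02 for Lipg, 2.98 for Alox5, 2.97 for Helz2 and 2.97 for Mogat2. Below the sum they were -3.00 for Mir703, -2.88 for Apoo, -2.59 for Zfp758, -2.54 for Aoc3, -2.48 for Snord12, -2.47 for Xlr, -2.47 for Kitl, -2.42 for Loxl2, -2.34 for Ndrg1, -2.28 for 2610305D13Rik, -2.26 for Nfe2l3 and -2.26 for Ier3. Mybl1 had -0.59. All these values are on the log2 scale.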

How the results depend on the processing

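With total counts, 3746 genes lay above the sum, 2291 below and 222 below by at least 2-fold; all departures shift together there, by construction of the scaling. Leaving out single libraries gave 1734 to 2625 genes above, 2815 to 3539 below, 717 to 884 above by at least 2-fold and 295 to 587 below by at least 2-fold; the lone library of a group is then assumed to vary like the others. The fit with the replicate block gave 2506 above and 3705 below (891 and 422 by at least 2-fold), and same-numbered libraries correlated between -0.0269 and 0.0843 in their deviations. DESeq2's Wald test gave 2323 and 3137, its size factors 2644 and 3286, no filter 2332 and 3749 of 18917 genes, and the filter on control libraries 2814 and 3057 of 13087. Of the 2410 and 3586 genes, 1254 and 2182 were called in every alternative with a test other than the control filter, and 0 were called the other way. Among 206 called named genes, 40 lost the call in at least 1 alternative. On the linear CPM scale 27 of the 3586 genes below the sum and 0 of the 2410 above changed sign, among named genes Loxl2 (0.325), Sfrp1 (2.50), Cdx1 (2.60) and Tubb3 (13.2); the 2 scales define additivity differently. Depth limits the weak genes: 115 of the genes above and 9 of those below had under 10 counts in at least 1 group.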

Other observations

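Gene families grouped by symbol after their values were seen gave further patterns. Of 345 tested Zfp genes, which code for zinc finger proteins, 122 (35.4%) lay below the sum and 27 (7.83%) above, with a median departure of -0.28, against 24.5% and 16.4% of all tested genes. Their median change was 0.28 with Dox, 0.32 with A-MYB and 0.37 with both on the log2 scale. Of 51 Hist genes, 25 (49.0%) were above the sum (against 16.4%) and 0 below (against 24.5%), with a median of 1.47. Their median control level was 0.577 CPM, in the range of the lowest of the 5 groups by control level. In that group 20.2% of genes were above the sum and 3.17% below.

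Of 429 long noncoding RNAs, 89 (20.7%) lay above the sum and 15 (3.497%) below, with a median departure of 0.71. Of 13980 protein-coding genes, 2296 (16.4%) lay above and 3539 (25.3%) below, at a median control level of 22.7 CPM. The noncoding RNAs had a median control level of 0.795 CPM, in the range of the lowest of the 5 groups by control level. In that group 20.2% of genes were above and 3.17% below, close to the shares of the noncoding RNAs. On the X chromosome 171 of 533 genes (32.1%) were below the sum and 51 (9.57%) above, at a median departure of -0.16, against 24.5% and 16.4% of all genes. Chromosome 18, with 30.4% below and 10.7% above, and chromosome 13, with 30.3% below, lay close to it. Tfrc, the transferrin receptor, fell with Dox alone, rose with A-MYB alone and fell with both, at 544 and 547 CPM in control cells, 452 and 410.0 with Dox, 747 and 694 with A-MYB and 225 and 183 with both. Its departure was -1.48 (SE 0.11, edgeR adjusted p = 4.25e-08). Inhbb, an inhibin subunit, was at 7.24 and 8.003 CPM in control cells, 8.36 and 7.66 with Dox, 7.27 and 6.95 with A-MYB and 2.13 and 1.81 with both; only the combination lay apart, with a departure of -1.92 (SE 0.26, edgeR adjusted p = 2.16e-06). Ptbp3, a splicing regulator, rose with each treatment alone and fell with both, at 107 and 117 CPM in control cells, 146 and 129.9 with Dox, 199.5 and 176 with A-MYB and 86.8 and 68.2 with both, with a departure of -1.58 (SE 0.15, edgeR adjusted p = 4.60e-06).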
